A study of Bos taurus with 18 samples.

Results

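The Krüppel-like factors (KLFs) are a family of transcription factors, and 10 of them were followed here from the immature bovine oocyte to the blastocyst. They were KLF2, KLF3, KLF4, KLF5, KLF6, KLF9, KLF10, KLF11, KLF13 and KLF17, taken from a named list of genes. Of these, 9 are rows of the expression table by symbol, out of 21668 genes in all. KLF2 is listed there as LOC520939, a locus number that the RefSeq gene table pairs with the symbol KLF2, and it was added on that ground. The study asked when the embryonic genome of cattle becomes active, as its title states, and measured RNA by sequencing in 18 libraries.

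The libraries covered 6 stages with 3 libraries each, and every library was made from 10 pooled oocytes or embryos. Germinal vesicle (GV) oocytes are immature and were taken before maturation in culture, while metaphase II (MII) oocytes had matured in vitro. Both came from German Simmental ovaries of a slaughterhouse and were freed of their cumulus cells. Embryos with 4, 8 or 16 cells and blastocysts were produced in vitro as German Simmental x Brahman crosses, so breed and stage change together between MII oocytes and 4-cell embryos and cannot be told apart there. No group was treated or genetically altered. The labels do not say whether the pools of a stage came from separate collections or cultures, so p-values measure only the spread between these pools.

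KLF proteins bind GC-rich and CACCC sequences through zinc fingers at their C-terminal end, and the regions before the fingers set what each member does. KLF2, KLF4, KLF5 and KLF6 act mostly as activators, and KLF2, KLF4 and KLF5 help to maintain naive pluripotency in mouse embryonic stem cells. KLF17 is a divergent member known from early human embryos. KLF3, KLF8 and KLF12 recruit the corepressor CtBP, whereas KLF9, KLF10, KLF11 and KLF13 bind the corepressor SIN3. KLF10 and KLF11 are induced by TGF-beta, and the reads shared by closely related finger sequences could be placed with the wrong member, a risk whose size is not given in the sources used here.

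Levels below are scaled counts, meaning reads recovered from the deposited values and divided by the size factor of the library. They give a gene's share of its library and not an amount per embryo. In bulk pools, fewer cells that contain an RNA and less RNA per cell cannot be told apart. Transcript lengths were not at hand, so levels are compared between stages of 1 gene and not between genes. Libraries held 2438473 to 11971840 reads in genes, and 1 read corresponds to 0.563 to 2.82 scaled counts. Spearman's rho of gene values between 2 replicates lay at 0.931 to 0.954 for oocytes, 4-cell embryos and blastocysts and at 0.854 to 0.909 for 8-cell and 16-cell embryos. Fewer genes were detected in 8-cell replicate 2 (12393) and in 16-cell replicate 1 (11970) than in their sister libraries. At the ends of the course, oocytes and blastocysts differed in their markers in bulk. The 10 oocyte markers summed to 81669 to 125781 in oocyte libraries and to 1352 to 3818 in blastocysts. In 4-cell libraries they summed to 93248 to 100097, within the oocyte range, so this list does not tell those stages apart. The 6 inner cell mass markers, KLF4 among them, summed to 12854, 10139 and 7194 in 16-cell embryos and to 5857, 7175 and 6175 in blastocysts. The 10 trophectoderm markers summed to at most 1037 before the blastocyst and to 22478 to 53810.2 in blastocysts.

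All 10 KLF genes differed over the 6 stages by the F test of limma, as did 67% of the 17138 genes tested, so this count by itself sets the family little apart. KLF17 (adjusted p = 1.2e-13) and KLF4 (adjusted p = 2.6e-12) held ranks 15 and 39 by F among all genes tested, while KLF6 had the highest adjusted p of the 10 (0.0014). The stage with the highest mean differed among the 10. KLF2 had its highest stage mean in GV oocytes, KLF11 and KLF17 in 8-cell embryos, KLF3, KLF4, KLF9, KLF10 and KLF13 in 16-cell embryos, and KLF5 and KLF6 in blastocysts.

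**Figure D1:**
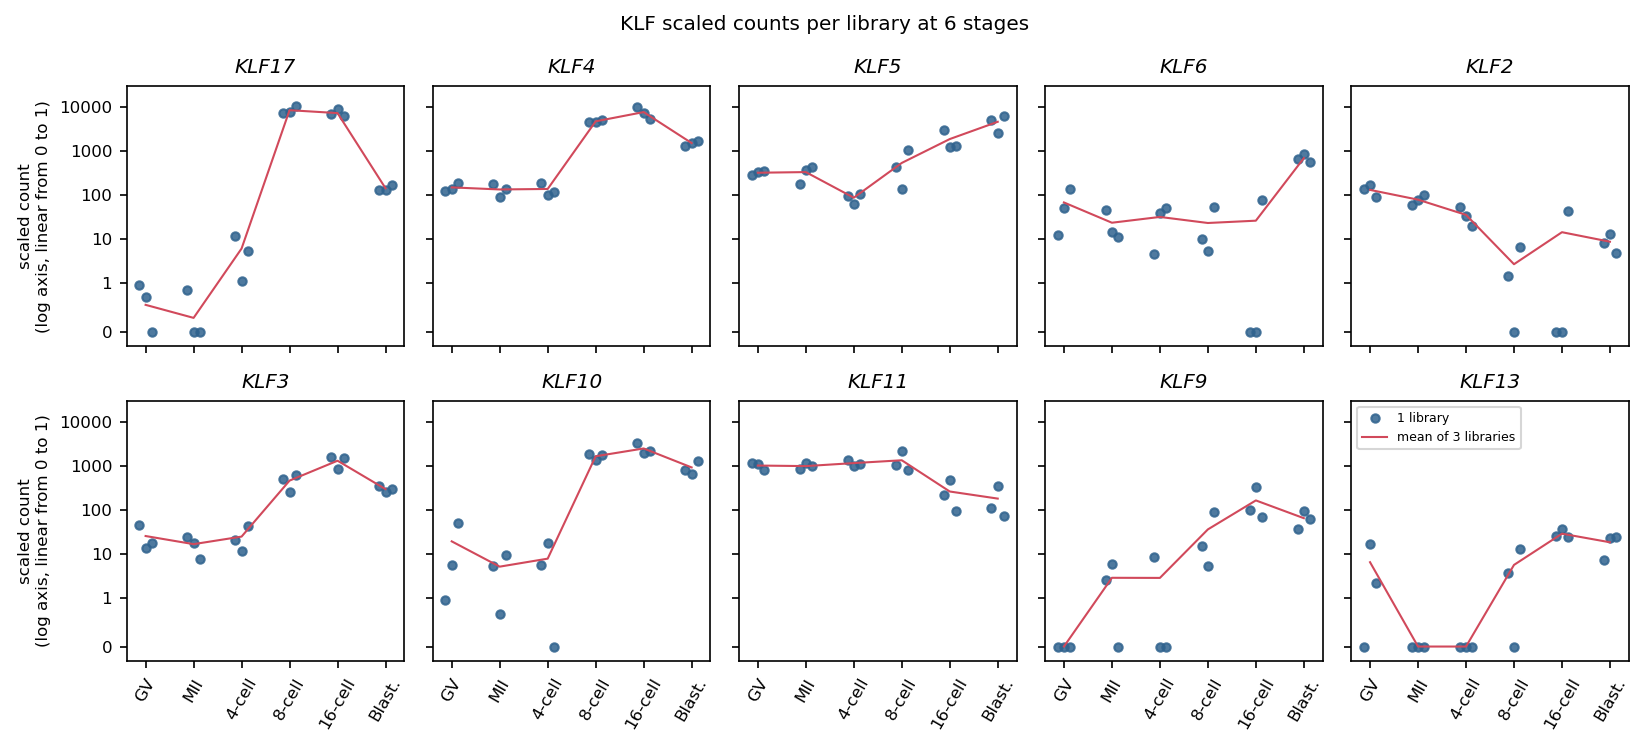
Scaled count (vertical axis, logarithmic above 1 and linear from 0 to 1) of the 10 KLF genes at 6 stages (horizontal axis), with 1 point per library and a line through the means of 3 libraries. KLF17 goes from at most 11.8 in oocytes and 4-cell embryos to at least 6151 at the 8-cell and 16-cell stages, while KLF11 is lower in all 16-cell and blastocyst libraries than in any earlier one.

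In oocyte maturation, MII against GV, none of the 10 passed limma in either direction or was called by voom. None had an unadjusted p under 0.05, beside 1414 of the 17138 genes tested. Over all genes tested, 0.0992% rose and 0.613% fell in that comparison, and the median difference of the 10 was -0.37 against 0 for all genes. Between MII oocytes and 4-cell embryos none passed either, beside 0.0642% of all genes that rose and 0.729% that fell. KLF5 and KLF17 had unadjusted p-values under 0.05 there, beside 1320 of the 17138 genes tested. Voom called 0 of the 10.

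At the 8-cell stage 5 of the 10 rose against 4-cell embryos (KLF3, KLF4, KLF5, KLF10 and KLF17) and none fell. Unadjusted p-values under 0.05 numbered 7 of 10, beside 4243 of the 17138 genes tested. By adjusted p, 8.64% of all genes tested rose and 4.13% fell. The median difference of the 10 was 2.43, against 0 over all genes. From the 8-cell to the 16-cell stage KLF3, KLF5 and KLF13 rose and KLF11 fell, 3 and 1 of 10, beside 14.8% of all genes that rose and 16.3% that fell. In blastocysts against 16-cell embryos KLF6 rose and KLF3, KLF4 and KLF17 fell, 1 and 3 of 10, beside 18.2% and 13.1% of all genes. With library medians set equal the balance over all genes turned, from 3117 rises and 2250 falls to 2408 and 2874. The same scaling moved it from 1480 rises and 708 falls to 1205 and 1016 at the 8-cell stage, and from 17 and 105 to 22 and 58 in MII oocytes. With the values as deposited, the median difference of the 10 in blastocysts against 16-cell embryos was -0.85, against 0.18 over all genes.

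**Figure D2:**
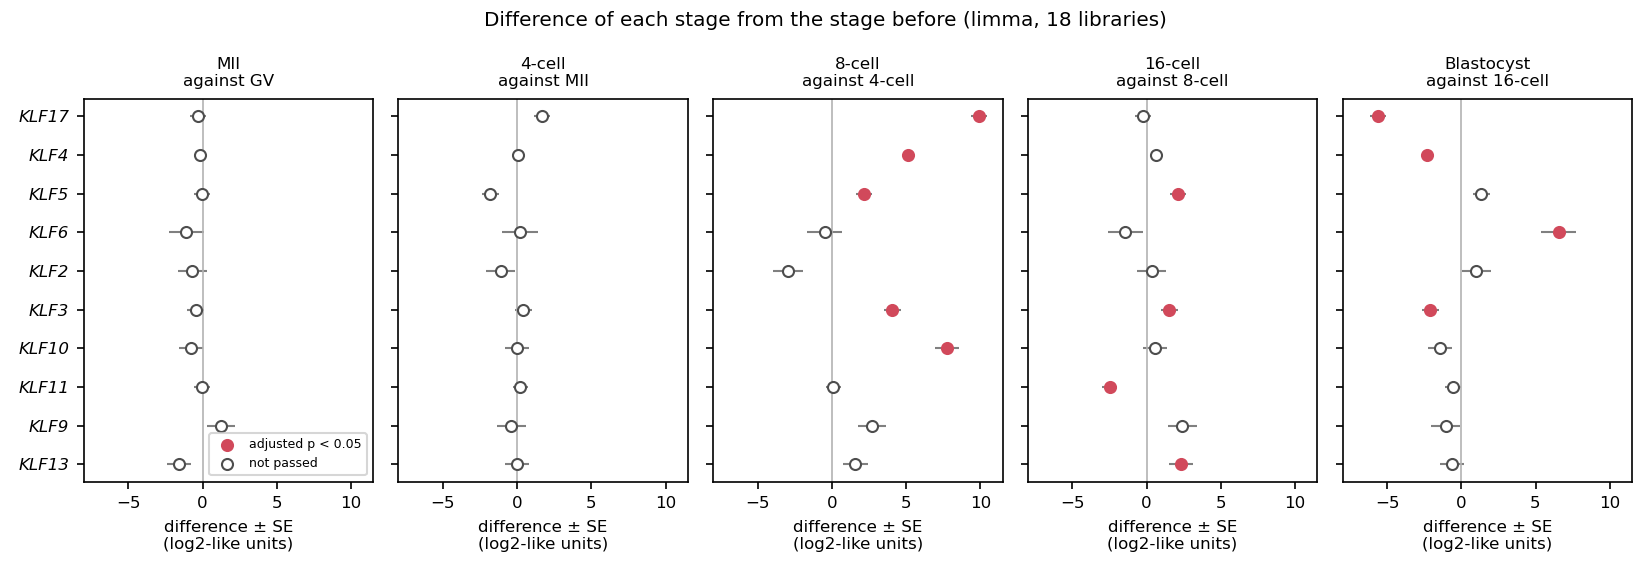
Difference of each stage from the stage before (horizontal axis, log2-like units of the deposited values, with SE from limma) for the 10 KLF genes in 5 comparisons. Filled points have an adjusted p under 0.05. None is filled in the first 2 panels, 5 are filled to the right of 0 at the 8-cell stage, and 3 of the 4 filled points in blastocysts lie to the left of 0.

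KLF17 was close to absent before the 8-cell stage and then rose by more than any other of the 10. The 3 GV libraries held 1, 1 and 0 reads of it and the 3 MII libraries 1, 0 and 0. The 4-cell libraries held 21, 2 and 4 reads, or scaled counts of 11.8, 1.13 and 5.22, each above every MII library. That step had a difference of 1.70 ± 0.54 (SE) and did not pass (adjusted p = 0.24), although it did with array weights (adjusted p = 0.003). The 8-cell libraries reached 7215, 7791 and 10364, a mean of 8457 ± 1677 (SD, n = 3). The difference from 4-cell embryos was 9.94 ± 0.54 (adjusted p = 6.7e-11). The 16-cell libraries, with 6843, 8801 and 6151, overlapped those of the 8-cell stage (difference -0.22 ± 0.54, adjusted p = 0.81). Blastocysts fell to 128, 127 and 171, which is 51.1-fold below the 16-cell mean (difference -5.63 ± 0.54, adjusted p = 1.3e-07). Even so, each blastocyst library lay above every oocyte and 4-cell library.

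KLF4, an activator and reprogramming factor, shared the timing but started from a steady level in the oocyte. GV libraries had 123, 135 and 188, MII libraries 175, 88.9 and 136, and 4-cell libraries 189.6, 102 and 119, with overlap between all 3 stages. The 8-cell libraries had 4456, 4617 and 5083, which put their mean 34.5-fold above 4-cell embryos (difference 5.11 ± 0.33, adjusted p = 1.4e-09). The 16-cell libraries, at 10173, 7423 and 5369, all lay above the 8-cell libraries. This further step of 0.65 ± 0.33 did not pass limma (adjusted p = 0.15), whereas voom called it (adjusted p = 0.016). In blastocysts KLF4 fell 5.06-fold to 1316, 1525 and 1699.8 (difference -2.29 ± 0.33, adjusted p = 2.4e-05), still above all oocyte libraries.

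KLF5, an activator that is also needed in the mouse trophectoderm, dipped and then climbed to its highest level in blastocysts. It had 278, 325 and 357 in GV oocytes and 179, 371 and 443 in MII oocytes, and the 4-cell libraries, with 92.8, 60.9 and 106, lay below all of these. That decrease (difference -1.82 ± 0.56) did not pass (adjusted p = 0.2), but it did with array weights (0.0014), when only the 6 MII and 4-cell libraries were fitted (0.022) and without 8-cell replicate 2 and 16-cell replicate 1 (0.025). The 8-cell libraries were spread widely, at 421, 134 and 1049, all above the 4-cell libraries, and the rise passed (difference 2.16 ± 0.56, adjusted p = 0.012). The call ended with voom (difference 2.12, adjusted p = 0.082), with the 6 libraries alone (2.16, 0.053), without 4-cell replicate 2 (1.94, 0.062) and without 8-cell replicate 3, where the difference was 1.45 (0.1). At the 16-cell stage KLF5 rose again to 3045, 1234 and 1316 (difference 2.11 ± 0.56, adjusted p = 0.0068). Without 8-cell replicate 2 that difference was 1.35 (adjusted p = 0.056), and without 16-cell replicate 1 as well it was 0.93 (0.18). Blastocysts had 4972, 2550.2 and 6306, overlapping the 16-cell range, with a difference of 1.34 ± 0.56 (adjusted p = 0.075). It passed in 9 of 28 alternatives, among them the fit with replicate number as a block (adjusted p = 0.046).

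KLF6, a widely expressed activator, stayed low until the blastocyst. It had 12.3, 50.2 and 140.1 in GV oocytes, and from the MII oocyte to the 8-cell embryo its libraries ranged from 4.5 to 53.8. Of the 16-cell libraries 2 had 0 reads and replicate 3 had 78. The blastocyst libraries, with 643, 872 and 549, all lay above every earlier library, and the rise was 6.56 ± 1.19 (adjusted p = 0.00025). Without 16-cell replicate 3 KLF6 fell from the 8-cell to the 16-cell stage (difference -3.19, adjusted p = 0.026), against -1.43 ± 1.19 (0.39) with it.

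KLF2, an activator known for its role in endothelial cells and in naive pluripotency, had its highest level in the oocyte, and none of its 5 steps passed. GV libraries had 138, 165 and 88, MII libraries, overlapping these, 58.1, 77.7 and 98.7 (difference -0.69 ± 0.99, adjusted p = 1). The 4-cell libraries, at 52.3, 33.9 and 19.6, lay below the MII libraries (difference -1.12 ± 0.99, adjusted p = 1). At the 8-cell stage 2, 0 and 5 reads were left, or 1.43, 0 and 6.56 scaled counts, all below the 4-cell libraries. The difference of -2.97 ± 0.99 narrowly missed the threshold (adjusted p = 0.052) and passed in 10 of 28 alternatives, voom among them (adjusted p = 0.015). Of the 16-cell libraries, replicate 3 had 42.7 and the others 0 reads, and blastocysts had 8, 13.1 and 4.84. Without 16-cell replicate 3 KLF2 rose in blastocysts (difference 2.49, adjusted p = 0.025), against 1.01 ± 0.99 (0.48) with it.

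KLF3, which represses through CtBP, rose in 2 steps and then fell. It ranged from 7.72 to 44.6 over the 9 oocyte and 4-cell libraries. The 8-cell libraries had 511, 249.7 and 616, which is 18.8-fold above the 4-cell mean (difference 4.07 ± 0.57, adjusted p = 3.2e-05). The 16-cell libraries had 1574, 853 and 1469.9, all above the 8-cell ones, and the rise of 1.54 ± 0.57 passed by little (adjusted p = 0.044). It passed in 16 of 28 alternatives. It failed without 8-cell replicate 2 (difference 1.16, adjusted p = 0.18) and without any single 16-cell library other than replicate 2 (0.11 for each). Other losses were array weights (0.23), library medians set equal (0.071), and the fits without 8-cell replicate 1 (0.066) or without 8-cell replicate 2 and 16-cell replicate 1 (0.29). Leaving out MII replicate 2, 4-cell replicate 1 or any single blastocyst library, all outside the comparison, also ended the call (0.052 to 0.056). Blastocysts fell 4.42-fold to 345, 248 and 288 (difference -2.09 ± 0.57, adjusted p = 0.0074).

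KLF12 and the CtBP genes followed courses other than that of KLF3. KLF12, a relative of KLF3 in the CtBP-binding group, had its highest mean at the 8-cell stage (1220.0 ± 506). It fell to 415 ± 239 in 16-cell embryos (adjusted p = 0.0045) and 93.3 ± 27.5 in blastocysts (adjusted p = 0.00067). KLF8, the third of the group, had reads in 6 of 18 libraries. CTBP2, which encodes a CtBP protein and is named for its role rather than by the rule for other genes, had means of 406 to 598 up to the 16-cell stage and rose to 1159 ± 441 in blastocysts (difference 1.44 ± 0.37, adjusted p = 0.0047). CTBP1 had at most 34.4 in any library, with 0 reads at the 16-cell stage and a mean of 8.64 in blastocysts (adjusted p = 0.03).

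Of the SIN3-binding members, KLF10 rose at the 8-cell stage and KLF11 fell 1 step later, at the 16-cell stage. KLF10 had 0.948, 5.65 and 50.6 in GV oocytes and 5.12, 0.659 and 9.44 in MII oocytes, and the 4-cell libraries, with 5.63, 17.5 and 0, overlapped both. The 8-cell libraries jumped to 1865, 1326 and 1731 (difference 7.75 ± 0.82, adjusted p = 9.7e-07), and the 16-cell libraries, with 3304, 1943 and 2155, lay above these without passing (adjusted p = 0.65). Blastocysts had 789, 644 and 1311, below all 16-cell libraries, and that difference of -1.45 ± 0.82 did not pass (adjusted p = 0.19) except with voom (0.0056) and with the 6 libraries alone (0.02), 2 of 28 alternatives.

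KLF11 was present throughout the oocyte and the early cleavages. GV libraries had 1167, 1075 and 785, and MII libraries 834, 1132 and 975. The 4-cell libraries, at 1368, 1004 and 1069.6, and the 8-cell libraries, at 1064, 2128 and 799, overlapped them. The 16-cell libraries had 213, 472 and 92.8, a decrease of 5.13-fold that lay apart from every earlier library (difference -2.50 ± 0.53, adjusted p = 0.0013). Blastocysts, at 112, 353 and 71.6, overlapped the 16-cell libraries (adjusted p = 0.47). This was the only fall of the 10 at the 16-cell stage, and it passed in all 28 alternatives.

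KLF9 and KLF13 had their highest means in 16-cell embryos. KLF9 had 0 reads in the 3 GV libraries. A count of 0 sets a 95% Poisson upper limit of 3 reads, or 2.12 to 2.84 scaled counts there, for counting error only, since amplified reads are not independent molecules. It had 0 to 8.44 in MII and 4-cell libraries and then 15, 5.35 and 86.6 at the 8-cell stage. The 16-cell libraries had 98.9, 322 and 66.8 and the blastocysts 37.3, 93.1 and 62, each stage overlapping the one before. The 8-cell step of 2.71 ± 0.96 did not pass (adjusted p = 0.071, and 0.035 with voom), nor did the 16-cell step of 2.41 ± 0.96 (0.062), and they passed in 5 and 4 of 28 alternatives. KLF13 had 0, 17 and 2.2 in GV oocytes, 0 reads in all MII and 4-cell libraries and 3.56, 0 and 13.1 at the 8-cell stage. It rose to 24.7, 36.7 and 24.1 in 16-cell embryos, which rests on 22, 13 and 13 reads (difference 2.33 ± 0.82, adjusted p = 0.036). The call held in 19 of 28 alternatives. The difference was 1.53 without 8-cell replicate 2 (adjusted p = 0.2) and 1.61 without 16-cell replicate 1 as well (0.21). In the other losses it was 2.11 to 3.29: voom (0.05), array weights (0.17), the 6 libraries alone (0.25), and the fits without 8-cell replicate 1 (0.063) or any single 16-cell library (0.051 to 0.085). Blastocysts had 7.33, 23 and 24.2, overlapping the 16-cell range.

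The corepressor gene SIN3A, named for its role, had means of 2059.8 to 3304 up to the 16-cell stage and fell to 867 ± 272 in blastocysts (difference -1.28 ± 0.26, adjusted p = 0.00075). SIN3B had means of 182 to 343 and no call in any of the 5 comparisons. Around KLF10 and KLF11, 13 genes of TGF-beta signalling were tested. At the 8-cell stage 1 of the 13 rose, beside 8.64% of all genes. It was SKIL, an inhibitor of SMAD proteins, from 3.42 ± 4.98 to 108 ± 78.4 (adjusted p = 0.0071). At the 16-cell stage 4 fell (3 with voom, and 3 without 8-cell replicate 2 and 16-cell replicate 1) and 0 rose, beside 16.3% and 14.8% of all genes. The median difference over the 13 was 0.05, against 0 for all genes. They included the receptor-activated SMAD2, from 2016 ± 876 to 403 ± 111 (adjusted p = 0.00013), and SMAD3, from 431 ± 114 to 129.6 ± 84.7 (adjusted p = 0.024).

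**Figure D3:**
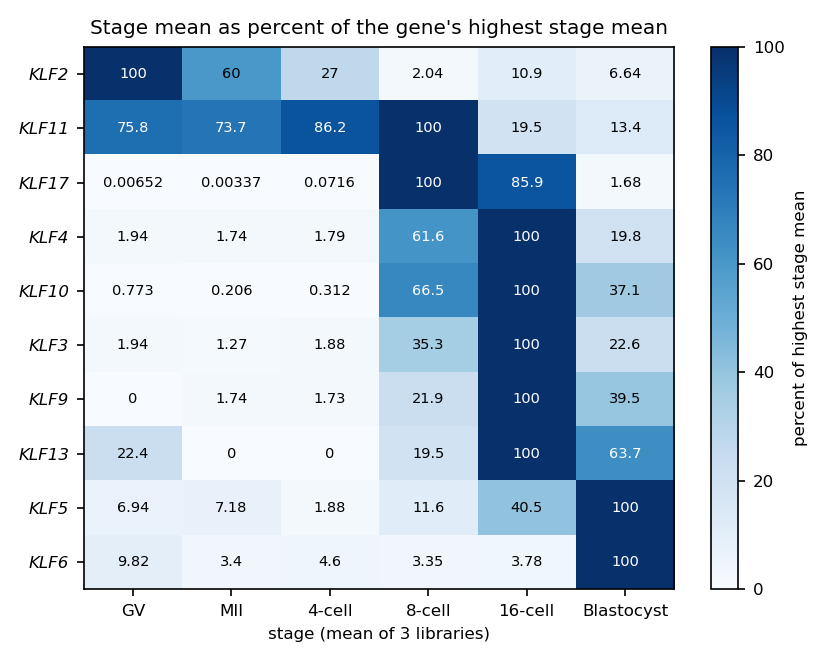
Mean scaled count of each stage as a percent of the gene's own highest stage mean, for the 10 KLF genes (rows) at 6 stages (columns, means of 3 libraries). KLF4, KLF10 and KLF3 have 61.6%, 66.5% and 35.3% of their 16-cell level at the 8-cell stage, KLF5 reaches 40.5% of its blastocyst level at the 16-cell stage, and KLF6 stays under 10% until the blastocyst.

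Libraries that stood apart carried unusual KLF values. The oocyte marker sum was 109397 in 8-cell replicate 2 and 73022 and 50368 in its 2 sister libraries. It had the lowest KLF3, KLF5, KLF6, KLF9 and KLF10 of its stage, 0 reads of KLF2 and KLF13, and the highest KLF11. Its KLF4 (4617) and KLF17 (7791) lay between those of its sister libraries. Without this library and 16-cell replicate 1, 6 KLF genes rose at the 8-cell stage, with KLF9 as the sixth (adjusted p = 0.019). KLF11 was then the single call at the 16-cell stage. Over all genes, the calls of that fit stayed within 1.5 times the counts from all 18 libraries, 2188 and 5337 at these stages.

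In 2 libraries, high markers of other cells came together with KLF6 and KLF10 in the first and with KLF2 and KLF6 in the second. Such markers were also high in 16-cell replicate 2, which had 0 reads of KLF2 and KLF6. GV replicate 3 had the highest KLF6 (140.1) and KLF10 (50.6) of all oocyte libraries, but the lowest KLF2 of its stage (88 against 138 and 165). It also had 94.6 of FSHR, the receptor for follicle-stimulating hormone on granulosa cells, and 118 of the granulosa product FST, against at most 2.12 and 4.95 in the other GV libraries. The list of 16 cumulus and granulosa markers summed to 2422, 2908 and 3495 in GV oocytes, with 8, 10 and 13 markers detected, and TNFAIP6, FOXL2 and COL3A1 were at 0 reads in all 3. HAS2 and STAR made up most of these sums in oocytes, and without them the sums were 121, 329 and 1196.

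The second such library was 16-cell replicate 3, the 1 library of its stage with reads of KLF2 (42.7) and KLF6 (78). Its KLF10 (2155) lay between those of its sister libraries (1943 and 3304). There the collagen gene COL3A1 had 749.8, compared with 0 and 110.1 in replicates 1 and 2, and FST 81.7 against 0 and 5.65. The leukocyte gene PTPRC had 16.7 against 0 and 0. The 16 markers summed to 527, 3456 and 5323 in the 16-cell libraries, with FOXL2 at 0 reads, and the 5 blood markers to 0, 0 and 72.4, with HBA and HBB at 0 reads. In 16-cell replicate 2 the matrix gene LUM had 1699.7, close to the 2138 of replicate 3, while KLF2 and KLF6 had 0 reads. VIM, a filament gene of mesenchymal cells, had 802 in replicate 2 and 726 in replicate 3. In blastocysts, where KLF6 rose, the aromatase gene CYP19A1 of the same list rose to 459.9, 333 and 224 (adjusted p = 2e-05) and the collagen gene COL1A2 had 425, 470.0 and 233. FSHR had 48.7, 53.7 and 20.3 in blastocysts, FST 0 reads and VIM at most 2.9. The sums without HAS2 and STAR were 243, 2739 and 4981 at the 16-cell stage, and blastocysts had 1269.7, 1192 and 590.5. FSHR, FST, VIM, COL1A2, COL3A1 and LUM were picked out after their values were seen, and the part of other cells in the KLF values was not tested.

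**Figure D4:**
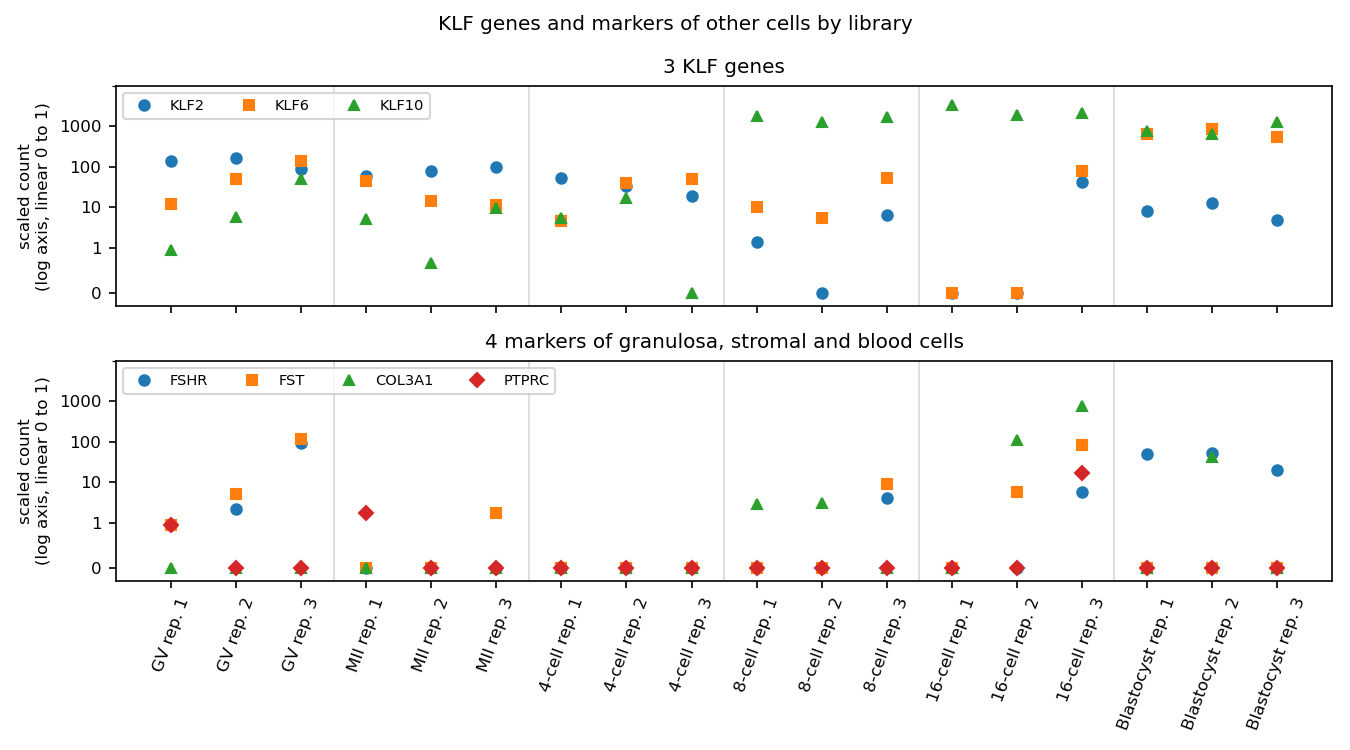
Scaled counts by library (horizontal axis, 18 libraries in the order of the stages, vertical axis logarithmic above 1) of KLF2, KLF6 and KLF10 in the upper panel and of FSHR, FST, COL3A1 and PTPRC in the lower panel. KLF2 and KLF6 are at 0 in 16-cell replicates 1 and 2 and at 42.7 and 78 in replicate 3, the library with the highest COL3A1 (749.8) and PTPRC (16.7).

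The SP proteins share the finger region with KLFs and bind GC boxes. Of 17 further family genes 16 were in the table, and 14 of these were tested. The median difference of the 14 at the 8-cell stage was 0.13 against 0 for all genes. There 2 of the 14 rose and 0 fell, beside 8.64% and 4.13% of all genes. They were SP1, a widely expressed activator, from 409 ± 33.5 to 3712 ± 1101 (difference 3.13 ± 0.31, adjusted p = 3.9e-07), and SP5, a target of WNT signalling, from 0.435 ± 0.754 to 113 ± 29 (5.37 ± 0.87, adjusted p = 0.00019). KLF12 was the single fall at the 16-cell stage, beside 16.3% of all genes. In blastocysts 5 of the 14 fell, beside 13.1% of all genes. They were SP1, SP2, SP4 (listed as LOC523019), SP5 and KLF12, with SP1 at 1213 ± 294. Voom called 3 falls in the list, and the median difference of the 14 was 0.31, opposite in sign to the calls, against 0.18 for all genes. SP3 and KLF7 had no call, with means of 621 to 1167 and 111 to 201. KLF14 had 0 reads in 18 libraries and KLF1 had 9 reads in a single library.

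Genes listed beside the KLFs as activation factors, partners or cofactors moved at the same stages in part. Of 9 activation factors tested beside KLF17, 8 rose at the 8-cell stage, beside 8.64% of all genes. The median difference of the 9 was 6.19 against 0 over all genes. ARGFX, a homeobox gene, went from 0.623 ± 0.655 to 1241 ± 847 (adjusted p = 5.9e-07), then to 8959 ± 4435 in 16-cell embryos and to 243 ± 64 in blastocysts. At the 16-cell stage 3 of the 9 rose, ARGFX among them (adjusted p = 0.0086), beside 14.8% of all genes. Without 8-cell replicate 2 and 16-cell replicate 1, 0 of the 9 rose. In blastocysts 5 of the 9 fell and 1 rose, beside 13.1% and 18.2% of all genes. Among 14 partners in naive pluripotency 5 rose at the 8-cell stage and 0 fell (median difference 0.73), beside 8.64% and 4.13% of all genes. PRDM14, a regulator of naive pluripotency and germ cells, went from 0 reads in 4-cell embryos to 480.0 ± 153 (adjusted p = 5.1e-07). TBX3, a T-box factor, went from a single read in 4-cell embryos to 377 ± 154 (adjusted p = 1.2e-07). Both had reads in oocytes, PRDM14 9 over the GV and 23 over the MII libraries, TBX3 39 and 36. TBX3 rose further in blastocysts, to 3851 ± 690.0 (adjusted p = 0.018), while KLF4 and KLF17 fell. Among 15 cofactors and ubiquitin ligases, 0 passed limma at the 8-cell stage and voom called 0. Unadjusted p-values under 0.05 numbered 3 there, beside 4243 of the 17138 genes tested. Without the pair of libraries above, 2 of the 15 rose and 1 fell at the 8-cell stage. At the 16-cell stage 5 rose and 4 fell, beside 14.8% and 16.3% of all genes, and in blastocysts 5 rose and 2 fell, beside 18.2% and 13.1%. From the 8-cell to the 16-cell stage the acetyltransferase gene KAT2B went from 260.0 ± 217 to 1508 ± 308 (adjusted p = 0.0013). The deacetylase gene HDAC1 went from 401 ± 346 to 1760.4 ± 124 at that step (0.00044). Neither was called in blastocysts (adjusted p = 0.42 and 0.072).

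Across the 18 libraries, deposited values of KLF4 and KLF17 had a Pearson correlation of 0.98, KLF3 and KLF4 of 0.96 and KLF4 and KLF10 of 0.96, the 3 highest of the pairs of members. The lowest was that of KLF5 and KLF11 (-0.85), followed by KLF2 with KLF4 and with KLF17 (-0.84 each). These values describe a shared course over the same libraries and stages and have no test. By the same measure the genes most like KLF17 were PNRC1 and TAF4B (0.982 each) and its relative SP1 (0.977), and those most like KLF4 were PDP2 (LOC100299267, 0.992), BZW1 (0.984) and PNRC1 (0.982). ARGFX (0.982), SYDE2 (0.98) and ABCA6 (0.977) were nearest to KLF3, SLC2A3 (0.974), TYW3 (0.972) and TPT1 (0.967) to KLF10, and SPIRE1 (0.982), CYBRD1 (LOC534257, 0.972) and SAMD12 (0.969) to KLF11. PPIL1 (0.964), HUWE1 (0.952) and ITM2B (0.95) were nearest to KLF5. For KLF4 267 genes with a symbol had a correlation above 0.9 and for KLF17 178, whereas KLF2 had 3, FURIN the highest (0.92), and KLF6 had 0, with INVS the highest (0.891). KLF9 was most like IRF3 (0.949).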

How the data were processed

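The authors deposited 1 table of variance-stabilised log2-like values. The submitters' processing notes name CASAVA 1.6, TopHat2 2.0.3, HTSeq, DESeq and the build UMD3.1; gene annotation and handling of multiply matching reads: not given in the sources used here. The cDNA kit described in the labels amplifies RNA and does not mark strand. Inverting the transformation gave whole reads for all 390024 values (tolerance 1e-06), and the recovered size factors equalled median-of-ratios factors.

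limma 3.58.1 (R 4.3.3) was fitted to the deposited values of all 18 libraries as a model of stage, with a variance trend. Genes detected (1 read or more) in 3 libraries or more entered, and Benjamini-Hochberg adjusted p under 0.05 over these genes counted as a call, two-sided. The procedure was tested on simulated reads. Alternatives were voom on recovered reads, other filters, scalings and weights, a replicate block, 2 stages alone, and leaving out each library. From the 8-cell stage on, each library's deviations from its stage mean were most like those of the same-numbered library 1 stage before (correlations 0.017 to 0.134). In MII oocytes and 4-cell embryos this held for replicates 1 and 3 (0.076 to 0.202) but not for replicate 2 (0.02 and -0.002). The labels give the numbers only.

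Members and lists were chosen with earlier results of these data known. All 10 members are reported. From each list the 3 genes with the smallest F test p could be named, from the KLF and SP family all, and for each member the 3 genes with the highest correlation. The genes most like KLF13 are not reported here. Symbols for locus numbers came from a RefSeq gene table of ARS-UCD2.0, another build, used for names only. Python 3.11.15, pandas 2.3.3 and matplotlib 3.10.9 made tables and plots.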

Additional observations from a re-analysis of the deposited data

How the results depend on the processing

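Of the 13 KLF results that passed the threshold, 0 changed sign and 9 passed in all 28 alternatives. The 4 that lost the call at least once were KLF5 at the 8-cell stage and KLF3, KLF5 and KLF13 at the 16-cell stage. Of the 37 that did not pass, 10 did in at least 1 alternative. The number of KLF genes called between MII and 4-cell went from 0 to 2 with array weights (KLF5 lower, KLF17 higher) and to 1 (KLF5) in the fit to 6 libraries, and ranged from 0 to 1 with libraries left out. At the 16-cell stage it went from 4 to 2 with array weights and ranged from 1 to 5 with libraries left out. The cause was not tested. In the other comparisons, and for the F test, the counts stayed within 1.5 times. The joint omission of 8-cell replicate 2 and 16-cell replicate 1 was chosen after seeing the data. With the replicate block, 5 KLF genes were called at the 8-cell stage, 4 at the 16-cell stage and 5 in blastocysts (KLF5 added), with 0 before.

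Over all genes, counts moved by more than 1.5 times in these cases: MII against GV from 122 to 80 with library medians set equal, 848 with array weights, 497 with 6 libraries and 19 to 250 with libraries left out; 4-cell against MII from 136 to 85, 1003, 433 and 58 to 272; 8-cell against 4-cell from 2188 to 3352 with array weights; 16-cell against 8-cell from 5337 to 3519 with array weights and 2292 with 6 libraries. Setting library medians equal moved the median difference of all genes to 0.315, 0.124, -0.24, -0.121 and -0.174 in the 5 comparisons, so uncalled KLF differences near 0 have no stable sign. KLF13 rests on at most 25 reads in any library and KLF2 on at most 23 after the 4-cell stage, so their values there are coarse. No alternative is lacking except that KLF13 had no value for 4-cell against MII in the fit to 6 libraries.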
